A study of Mus musculus with 18 samples.

Results

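The transcripts described here are Omt2a and Omt2b and the 6 genes of the mouse Tcl1 family, Tcl1 and Tcl1b1 to Tcl1b5. They are 8 of 55335 genes listed in each library of a series on histone crotonylation in early mouse embryos, and they were looked up by symbol. The members were chosen by their measured FPKM in all 7 groups, as abundant transcripts of the egg that do not follow the pattern of the egg genes Zp2, Zp3 and Mos. Every level and difference given for them is therefore a description without a test. RNA was read with Smart-seq2, which copies poly(A) RNA at full length, from tubes of 5 to 10 embryos each, in 18 libraries sequenced as pairs of 150 nt reads. The siRNA experiment has 4 groups of 3 libraries, embryos given control siRNA (siCon) or Echs1 siRNA (siEchs1) and collected at E2C or at L2C. The treatment experiment has 3 groups of 2 libraries, wild-type (WT) zygotes given DMSO, sodium acetate or sodium crotonate and collected as E2C, the early 2-cell stage. The labels give no strain, no dose and no way of delivery of the siRNA, and they do not spell out L2C. Each library pools several embryos, and fewer cells and less RNA per cell cannot be told apart in such bulk samples.

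The mouse egg is loaded with messenger RNA during its growth, and the embryo lives on this store until its own genome is switched on. Most of the store is then cleared, part of it before and part of it after genome activation. Omt2a and Omt2b are transcripts of the maturing oocyte whose products are little studied. The Tcl1 family encodes small proteins that bind the kinase AKT and raise its activity. In humans TCL1A is known from T-cell tumours in which it is switched on by rearrangement, while in the mouse a whole cluster of Tcl1b copies is expressed in oocytes and early embryos.

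The members lie in 2 groups on the mm10 build (GENCODE vM21 positions, matched by gene ID), and all 8 are annotated as protein-coding. Omt2a (minus strand) and Omt2b (plus strand) stand back to back within 17.6 kb at chr9:78311972-78329620. Tcl1b2, Tcl1b1, Tcl1b5, Tcl1b3 and Tcl1b4 follow each other in that order on the plus strand, and Tcl1 closes the row on the minus strand, all within 76.8 kb at chr12:105146014-105222793. The promoters of the 5 Tcl1b genes (RefSeq, GRCm38.p6, 250 bases before to 50 after the start) were alike to differing degrees. Over the 10 pairs, local alignments had 67.5% (Tcl1b3 with Tcl1b5) to 98.6% (Tcl1b2 with Tcl1b4) identical positions. Each of the 5 promoters held a pair of E-boxes (CANNTG, the letters bound by basic helix-loop-helix factors) whose first bases were 25 bases apart. These E-box pairs are printed because they show how alike the 5 copies are in these windows, 5′ to 3′ on the plus strand with the E-boxes in capitals. Tcl1b2 (chr12:105146940-105146999), Tcl1b1 (chr12:105159611-105159670), Tcl1b5 (chr12:105176265-105176324), Tcl1b3 (chr12:105190950-105191009) and Tcl1b4 (chr12:105202329-105202388) read as follows.
Tcl1b2: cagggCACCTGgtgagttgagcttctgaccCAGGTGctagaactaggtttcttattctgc
Tcl1b1: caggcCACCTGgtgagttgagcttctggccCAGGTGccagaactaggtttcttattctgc
Tcl1b5: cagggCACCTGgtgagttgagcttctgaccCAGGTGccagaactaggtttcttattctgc
Tcl1b3: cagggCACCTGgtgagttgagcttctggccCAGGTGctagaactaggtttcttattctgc
Tcl1b4: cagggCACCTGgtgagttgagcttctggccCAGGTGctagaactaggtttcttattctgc
The windows of Tcl1b3 and Tcl1b4 were identical, and the first E-box began between positions -90 and -61 from the start of transcription.

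The promoters of the other members were less alike. Local alignments of the Tcl1 promoter with those of the Tcl1b genes covered 122 to 167 bases at 56.4% to 59.0% identity, and the Omt2a and Omt2b promoters matched at 56.5% over 216 bases. Alignments of Omt2 promoters with Tcl1 family promoters reached 56.0% to 62.5% over 56 to 282 bases. The values for Tcl1 with Tcl1b and for the Omt2 pair were thus no higher than those between the families. The 120 bases before the start of Tcl1 (chr12:105222738-105222857, minus strand), Omt2a (chr9:78314049-78314168, minus strand) and Omt2b (chr9:78327910-78328029, plus strand) are shown for contrast, with E-boxes and a TAATTG match in capitals.
Tcl1: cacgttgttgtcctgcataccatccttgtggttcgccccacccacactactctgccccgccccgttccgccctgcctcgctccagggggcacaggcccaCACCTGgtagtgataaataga
Omt2a: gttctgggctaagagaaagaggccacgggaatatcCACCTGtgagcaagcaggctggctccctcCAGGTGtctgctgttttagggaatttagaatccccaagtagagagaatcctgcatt
Omt2b: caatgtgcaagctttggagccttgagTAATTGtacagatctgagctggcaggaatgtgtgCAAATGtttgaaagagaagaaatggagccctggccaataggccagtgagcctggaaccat
All 8 promoters of 300 bases held at least 1 E-box on either strand, as did 72.3% of the 32851 RefSeq mouse promoters of that length. TAATTG, the letters of a site of the oocyte factor NOBOX, was found in Omt2b alone, at position -94, and in 8% of all promoters. Neither TATAAA (13.6% of all promoters) nor TAATCC, the letters of an OTX site (7.06%), was found in any of the 8. These matches describe letters in these windows and say nothing of binding.

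Close copies of a gene can share reads. A stretch of 150 nt of an Omt2a transcript was also present in Omt2b for 10.9% of such stretches, and 18.9% of those of Omt2b were present in Omt2a. Tcl1b2 and Tcl1b3 shared 3.84% and 3.68% of their stretches, and Tcl1, Tcl1b1, Tcl1b4 and Tcl1b5 shared 0. At 50 nt, 51.5% of the stretches of Omt2b and 34.1% of those of Tcl1b3 were shared with another member, while 0 of Tcl1 were. How shared reads were assigned is not given in the sources used here, so the split between Omt2a and Omt2b and among the Tcl1b copies is uncertain, and the sum of each group is less so.

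Values were FPKM, fragments scaled to the length of the gene and the size of the library, and their sum per library lay between 705511 and 1122231. The files hold no read counts, so counting error cannot be given. Echs1, the target of the siRNA, was between 24.4 and 39.2 FPKM in the 6 siCon libraries and between 0.71 and 5.88 FPKM in the 6 siEchs1 libraries (log2 difference -3.02 at E2C, limma adjusted p = 0.00252, and -3.19 at L2C, adjusted p = 0.000435). It was between 27.8 and 42.6 FPKM in the treatment libraries. All 5 markers of the 2-cell embryo that were checked (Zscan4c, Zscan4d, Zfp352, Tcstv3, Obox6) were at 1 FPKM or more in every library of 6 groups, and 4 of them in every library of siEchs1 L2C. Their sum was lower with siEchs1 at both stages, as the members were. At E2C it was 1007 to 1237 FPKM in siCon and 235 to 391 in siEchs1. At L2C it was 739 to 1106 in siCon and 56.7 to 130.4 in siEchs1. The sums of siCon E2C and siCon L2C overlapped, whereas those groups did not overlap for Omt2a and Omt2b. In the treatment libraries the marker sum was 88.9 to 185 FPKM in DMSO, 149 to 215 in acetate and 218 to 220.0 in crotonate. The 6 oocyte markers (Zp1, Zp2, Zp3, Mos, Gdf9, Zar1) summed to 296 to 340 FPKM in siCon E2C and 509 to 11809 in siEchs1 E2C. They summed to 407 to 432 FPKM in siCon L2C and 10687 to 16234 in siEchs1 L2C. In DMSO they summed to 369 to 452 FPKM, in acetate to 241 to 481 and in crotonate to 218 to 257. What this means for the content of the siEchs1 tubes was not tested. The 10 markers of cumulus and granulosa cells summed to at most 10.3 FPKM in any library, and 7 lymphocyte markers, listed because lymphocytes are the known site of human TCL1A, to at most 37.8 FPKM. The lymphocyte sum was 18.6 to 24.0 FPKM in siCon E2C and 32.6 to 37.8 in siEchs1 E2C, without overlap, and 8.84 to 20.7 in siCon L2C and 20.4 to 37.3 in siEchs1 L2C, with overlap. Of the 7, Cd3e was at 0 in all libraries of 4 groups, Cd79b in 2 and Cd79a and Ptprc in 1 each, and 1 marker was at 1 FPKM or more in all libraries of every group. The 6 sperm and testis markers summed to 32.01 to 72.2 FPKM in siCon E2C and 5.30 to 10.3 in siCon L2C, and to 28.4 to 42.3 in siEchs1 E2C and 7.59 to 19.8 in siEchs1 L2C. Blood markers summed to 62.8 to 126 FPKM in siCon and to 2.80 to 18.5 FPKM in siEchs1, and oviduct markers to 124 to 186 FPKM in siCon L2C and at most 26.6 FPKM in every other group. Their part in the results was not tested. A pair of libraries stood apart. Replicate 3 of siEchs1 E2C held 35.9 FPKM of Zp3 against 3071 and 3622 in the other libraries of its group, and replicate 1 of acetate drew 20.7% of its FPKM total from mitochondrial transcripts against 11.9% in replicate 2. The counts of called members, pathway genes and neighbours that changed without them are given both ways for the comparisons that include these libraries. No label says that replicates were separate matings or cultures, so p-values speak only of how far these tubes vary, and that variation may be technical.

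Omt2a and Omt2b were among the most abundant transcripts of the control embryos. Omt2a was at 21476, 22237 and 23897 FPKM in siCon E2C and at 3912, 2211 and 6304 FPKM in siEchs1 E2C. At L2C it was at 5655, 6054 and 5034 FPKM in siCon and at 1054, 1472 and 1774 FPKM in siEchs1. The groups did not overlap at either stage, and each siEchs1 group was lower than its control. Omt2b was at 34093, 35365 and 36605 FPKM in siCon E2C and at 7851, 4646 and 12328 FPKM in siEchs1 E2C. At L2C it was at 9003, 9623 and 9048 FPKM in siCon and at 1848, 2021 and 2231 FPKM in siEchs1. The pattern was that of Omt2a, with replicate 3 of siEchs1 E2C the highest of its group for both genes. Omt2b ranked 1, 3 and 3 among all genes in the siCon E2C libraries, and the pair took 5.19% to 5.53% of their FPKM total. By rank Omt2b changed less than by FPKM at E2C, at 2, 8 and 2 in siEchs1 E2C. Its ranks were 3, 4 and 4 in siCon L2C and 18, 17 and 13 in siEchs1 L2C. In siEchs1 L2C the pair took 0.399%, 0.487% and 0.568%.

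Tcl1, the founding member of its family, was at 7030, 5854 and 5817 FPKM in siCon E2C and at 3106, 3749 and 3288 FPKM in siEchs1 E2C. At L2C it was at 4914, 4935 and 3620 FPKM in siCon and at 2147, 1771 and 2134 FPKM in siEchs1. The siEchs1 libraries lay below the siCon libraries at both stages. By rank among all genes they overlapped, at 16, 23 and 25 in siCon E2C and 27, 13 and 30 in siEchs1 E2C. At L2C the ranks were 11, 11 and 16 in siCon and 13, 25 and 15 in siEchs1, also with overlap. In contrast to the other members, Tcl1 was not high in replicate 3 of siEchs1 E2C.

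The Tcl1b copies, which encode further AKT-binding proteins of the family, shared the direction of Tcl1. Tcl1b1, the most abundant copy, was at 9523, 7865 and 8210 FPKM in siCon E2C and at 2392, 2351 and 4241 FPKM in siEchs1 E2C. It was at 3529, 3390 and 2877 FPKM in siCon L2C and at 948, 919 and 1236 FPKM in siEchs1 L2C. At both stages its highest siEchs1 library was below its lowest siCon library. Tcl1b2 was at 4261, 4131 and 3838 FPKM in siCon E2C and at 931, 1278 and 2149 FPKM in siEchs1 E2C. It was at 1086, 1090 and 707 FPKM in siCon L2C and at 477, 468 and 628 FPKM in siEchs1 L2C. Here the gap at L2C was narrow, since the lowest siCon library exceeded the highest siEchs1 library by little. Tcl1b3 was at 2964, 2370 and 2278 FPKM in siCon E2C and at 710, 687 and 1078 FPKM in siEchs1 E2C. It was at 1274, 1301 and 1052 FPKM in siCon L2C and at 308, 247 and 297 FPKM in siEchs1 L2C. No library of either siEchs1 group reached its control. Tcl1b4 was at 1308, 1302 and 1328 FPKM in siCon E2C and at 527, 415 and 688 FPKM in siEchs1 E2C. It was at 717, 661 and 423 FPKM in siCon L2C and at 265, 220 and 327 FPKM in siEchs1 L2C, again without overlap. Tcl1b5, the least abundant member, was at 609, 499 and 538 FPKM in siCon E2C and at 153, 190 and 209 FPKM in siEchs1 E2C. It was at 636, 627 and 481 FPKM in siCon L2C and at 151, 59.0 and 199 FPKM in siEchs1 L2C. Unlike the others, Tcl1b5 was as high in siCon L2C as in siCon E2C.

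**Figure D1:**
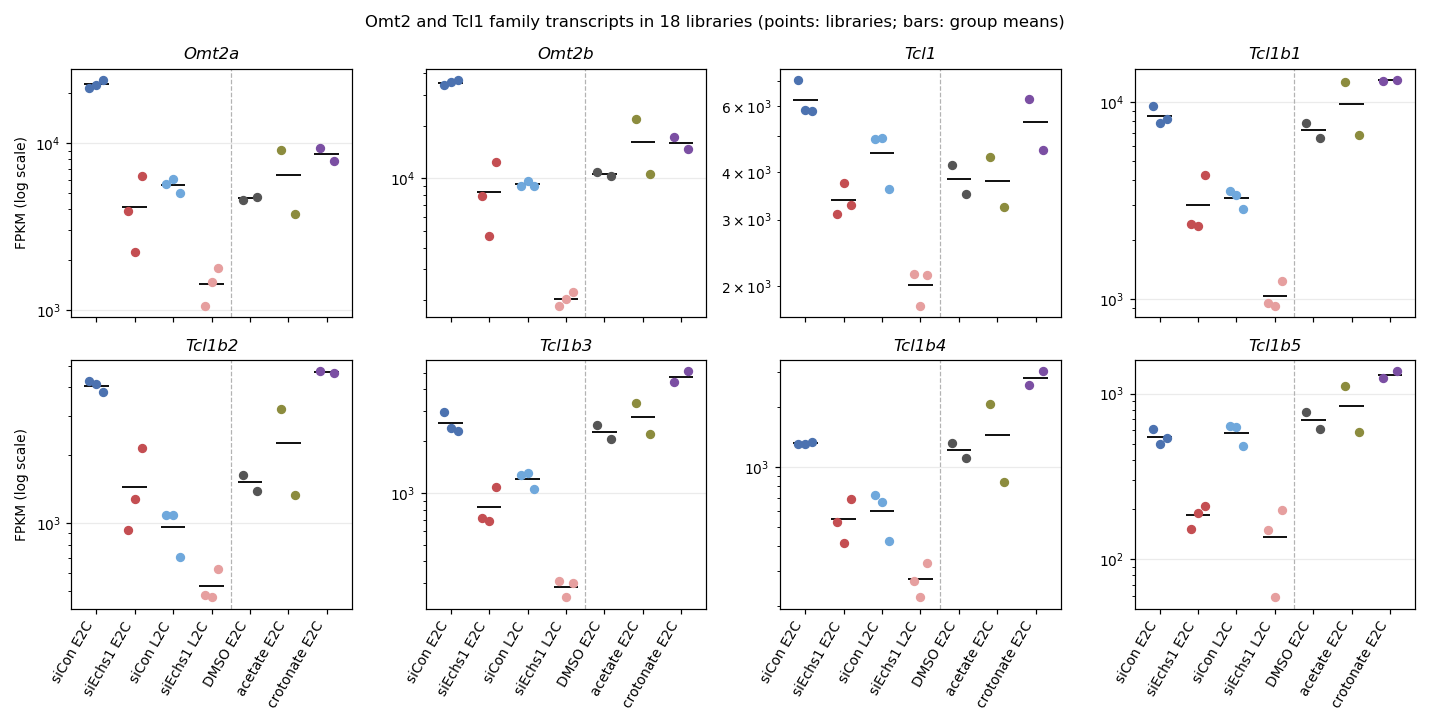
FPKM of each of the 8 genes (vertical log axis) in the 18 libraries by group, with a dashed line between the siRNA and treatment experiments, which were scaled separately; points are libraries and bars group means. In all 8 panels the siEchs1 points lie below the siCon points of the same stage, and the crotonate points lie above the DMSO points.

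The first comparison set siEchs1 against siCon at E2C, the stage that follows the first cleavage. All 8 members were lower with the siRNA and all 8 passed the threshold of the whole-table fit (limma, adjusted p under 0.05), a threshold that 9.31% of the 17652 tested genes passed as lower. The selection used these values, so the count is given beside its background only. All 8 also had groups that did not overlap, as had 15.5% of all genes in the lower direction. Omt2a had a mean 5.44-fold lower (4142 ± 2056 against 22537 ± 1238 FPKM, SD, n = 3), a log2 difference of -2.57 with a standard error (SE) of 0.35 on the log2(FPKM + 1) scale. Omt2b was 4.27-fold lower (-2.21, SE 0.32). Tcl1 was the least changed, at 1.84-fold lower (-0.88, SE 0.25). The 5 Tcl1b copies lay between, at -1.30 for Tcl1b4 to -1.64 for Tcl1b3. The median over the 8 members was -1.57, against 0.15 over all tested genes.

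Leaving out replicate 3 of siEchs1 E2C widened 7 of the 8 differences. In that fit 4055 genes were called higher and 2441 lower in all, against 1934 and 1644 with it. Omt2a went to -2.94, Omt2b to -2.55, Tcl1b1 to -1.84 and Tcl1b2 to -1.90, while Tcl1 stayed at -0.86. The size of the difference depended on scaling. Under quantile normalization, which gives every library the same set of values and leaves genes at the very top little room to differ, Omt2a was at -1.17, Omt2b at -0.29 and Tcl1 at -0.01, and the Tcl1b copies were between -0.70 and -1.32. Among all genes called at E2C 54.1% were higher, against 69.2% after rescaling without mitochondrial and ribosomal RNA and 40.4% with size factors from medians of ratios.

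At L2C, the later stage, the same comparison again put all 8 members lower, and all 8 passed the threshold beside a background of 26.9% of tested genes called lower. The groups of all 8 did not overlap, as was so for 32.6% of genes in that direction. Omt2b was 4.54-fold lower (2034 ± 192 against 9225 ± 346 FPKM, SD, n = 3, log2 difference -2.18, SE 0.32), and Omt2a was 3.89-fold lower (-1.99). In the Tcl1 family the order differed from that at E2C. Tcl1b5 (4.26-fold lower, -2.24) and Tcl1b3 (4.26-fold lower, -2.09) were the farthest from their controls, and Tcl1b2 (1.83-fold lower, -0.86) the nearest. Tcl1 was 2.23-fold lower (-1.14). The median over the members was -1.83, against -0.08 over all genes.

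The difference between the siRNA effects at L2C and E2C was small for the members beside its error. It ran from -0.67 for Tcl1b5 (SE 0.56) to 0.72 for Tcl1b2 (SE 0.47), with 4 members above 0 and 4 below. Of the members 0 passed the threshold, beside 17.2% of all genes, of which 32.8% were above 0, against 50.7% under quantile normalization. These intervals are wide, and a failure to pass does not show that the effects at the stages were equal. Without replicate 3 of siEchs1 E2C the value for Tcl1b2 was 1.04 and that for Omt2a 0.95, against 0.58 with it.

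The stage comparison, L2C against E2C, followed the same transcripts through the 2-cell stage. In siCon, 7 of the 8 members were lower at L2C, and 6 passed the threshold beside a background of 14.4% of genes called lower. The stages did not overlap for 7 members, beside 21% of all genes. Tcl1b2 was 4.24-fold lower (961 ± 220 against 4077 ± 217 FPKM, SD, n = 3, log2 difference -2.11), Omt2a 4.04-fold lower (-2.02) and Omt2b 3.83-fold lower (-1.94). Tcl1b1 (2.61-fold lower), Tcl1b4 (2.19-fold lower) and Tcl1b3 (2.10-fold lower) were in the middle. Tcl1 was 1.39-fold lower (-0.48, SE 0.25), without overlap between the stages but also without passing the threshold. Tcl1b5 was level (581 ± 87.3 against 548 ± 55.7 FPKM, 0.08, SE 0.39).

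In siEchs1 all 8 were lower at L2C, and 6 passed beside a background of 2.73%. The stages did not overlap for 7 of them, beside 8.07% of all genes. The log2 differences ran from -0.59 for Tcl1b5, whose stages overlapped, to -1.92 for Omt2b. The value for Tcl1b5 was -0.08 without replicate 2 of siEchs1 L2C and -0.95 without replicate 3 of that group. Without replicate 3 of siEchs1 E2C the differences ran from -0.49 to -1.57 and 6 members passed, in a fit that called 897 of 17652 genes lower against 482 with it. The stage differences in siCon depended on scaling too. Under quantile normalization Tcl1 was higher at L2C in siCon (0.53) and in siEchs1 (0.24), and Tcl1b5 was 0.65 in siCon. With size factors from medians of ratios Tcl1b5 was at -0.49 in siCon. These settings moved the median of all genes in siCon from 0.51 to -0.01 and 0.10, and the share of higher genes among those called from 71.3% to 49.7% and 54.1%. In siEchs1 that share went from 81.3% to 57.8% and 58.8%.

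**Figure D2:**
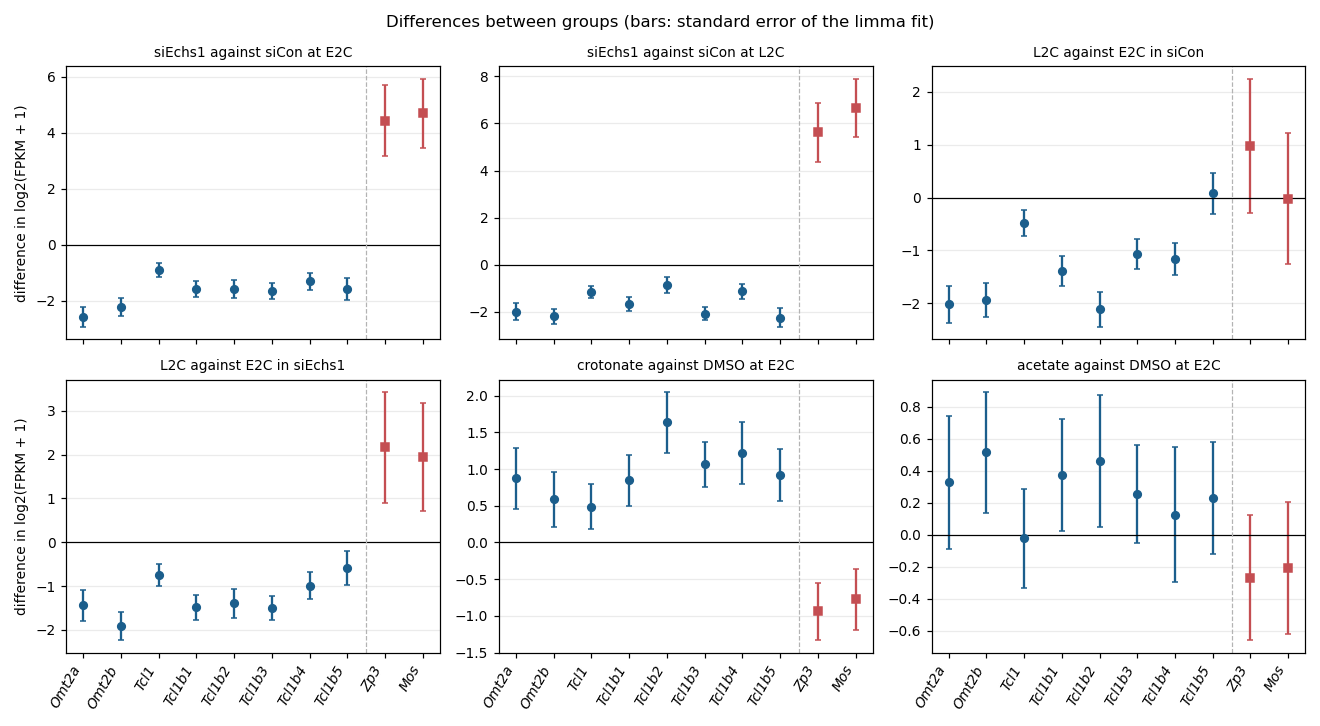
Differences in log2(FPKM + 1) between groups (vertical axis) for the 8 genes (circles) and for Zp3 and Mos (squares) in 6 comparisons, with bars of 1 standard error from the limma fit. The members lie below 0 and Zp3 and Mos above 0 in both siEchs1 comparisons, and the sides are exchanged for crotonate against DMSO, where Tcl1 goes to -0.05 under quantile normalization. Neither Zp3 nor Mos passed the threshold for crotonate against DMSO.

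Ordered by group mean, 6 of the 8 members (Omt2a, Omt2b, Tcl1, Tcl1b1, Tcl1b3 and Tcl1b4) ran siCon E2C, siCon L2C, siEchs1 E2C, siEchs1 L2C from high to low. For all 6 the middle groups, siCon L2C and siEchs1 E2C, overlapped and so cannot be ranked, while the steps above and below them did not overlap. Tcl1b2 had siEchs1 E2C above siCon L2C, also with overlap. Tcl1b5 had siCon L2C and siCon E2C first and overlapping, then siEchs1 E2C and siEchs1 L2C, overlapping as well. Across the 12 siRNA libraries the 28 pairs of members correlated with a Pearson r of 0.61 to 0.99 and a median of 0.94, which describes libraries that share 4 groups and, for some pairs, reads.

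The make-up of the family also differed between groups. Tcl1 made up 26.4% to 27.4% of the summed FPKM of the 6 family genes in siCon E2C. It made up 39.7%, 43.2% and 28.2% in siEchs1 E2C, 39.5% to 41.1% in siCon L2C and 44.3% to 49.98% in siEchs1 L2C. Tcl1 was thus a larger part of the family in the groups where the family was lower, with replicate 3 of siEchs1 E2C near the controls. Tcl1b1 went the other way, from 35.7% to 37.3% in siCon E2C to 22.1% to 25.6% in siEchs1 L2C. Tcl1b2 made up 16.6% to 18.8% in siCon E2C and 7.72% to 9.08% in siCon L2C. Tcl1b5 stood at 2.26% to 2.45% of the family in siCon E2C, at 5.22% to 5.25% in siCon L2C and at 1.60% to 4.13% in siEchs1 L2C.

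The ratio of Omt2b to Omt2a was 1.53 to 1.59 in siCon E2C and 1.96 to 2.10 in siEchs1 E2C, without overlap. It was 1.59 to 1.80 in siCon L2C and 1.26 to 1.75 in siEchs1 L2C, with overlap. In the treatment libraries it was 2.38 and 2.17 in DMSO, 2.40 and 2.80 in acetate and 1.83 and 1.90 in crotonate. Crotonate was thus lowest, and DMSO and acetate nearly met. Shared reads could move this ratio, and their part in it was not tested.

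**Figure D3:**
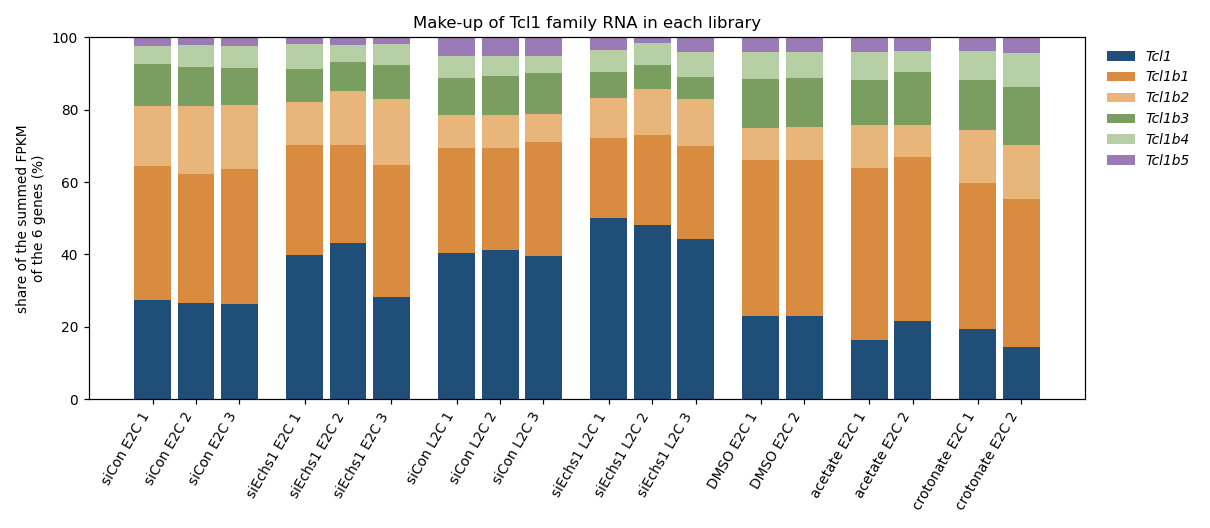
Share of each Tcl1 family gene in the summed FPKM of the 6 genes (stacked bars, percent) in each of the 18 libraries. Tcl1 takes 26.4% to 27.4% in siCon E2C and 44.3% to 49.98% in siEchs1 L2C, and Tcl1b1 takes 40.2% or more in every treatment library.

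The treatment experiment set crotonate and acetate against DMSO in wild-type embryos, and its values were scaled and fitted separately from those of the siRNA experiment. Omt2a stood at 9361 and 7773 FPKM with crotonate, at 9055 and 3771 with acetate and at 4580 and 4744 with DMSO. Omt2b stood at 17152 and 14773 FPKM with crotonate, at 21708 and 10545 with acetate and at 10903 and 10310 with DMSO. Both genes were higher in both crotonate libraries than in either DMSO library. In acetate, replicate 1 was high and replicate 2 was near DMSO. Tcl1 stood at 6254 and 4594 FPKM with crotonate, at 4382 and 3230 with acetate and at 4182 and 3498 with DMSO. Tcl1b1 stood at 12884 and 12998 FPKM with crotonate, at 12727 and 6831 with acetate and at 7868 and 6594 with DMSO. For these genes too the crotonate libraries were above DMSO, and acetate overlapped with it. Tcl1b2 stood at 4724 and 4659 FPKM with crotonate, at 3219 and 1339 with acetate and at 1640 and 1390 with DMSO. Tcl1b3 stood at 4382 and 5095 FPKM with crotonate, at 3307 and 2198 with acetate and at 2487 and 2058 with DMSO. The gap between DMSO and crotonate was widest in Tcl1b2. Tcl1b4 stood at 2587 and 3027 FPKM with crotonate, at 2058 and 841 with acetate and at 1323 and 1101 with DMSO. Tcl1b5 stood at 1237 and 1366 FPKM with crotonate, at 1107 and 586 with acetate and at 770 and 613 with DMSO. Replicate 1 of acetate was the higher acetate library for all 8 genes.

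Against DMSO, crotonate put all 8 members higher, with no overlap between the libraries, as was the case for 19.2% of all tested genes in that direction. The log2 difference was 1.64 for Tcl1b2 (3.10-fold, SE 0.41), 1.21 for Tcl1b4, 1.06 for Tcl1b3 and 0.49 for Tcl1, the smallest. The Omt2 pair was at 0.87 and 0.59. Of the members 0 passed the threshold, beside 0.529% of 13789 genes. Leaving replicate 1 of acetate out of the fit, which leaves these differences as they were and changes the shared estimate of spread, brought 6 of the 8 past it, with 306 genes called higher and 888 lower in all. Without replicate 2 of acetate 276 genes were called higher and 804 lower, and without either crotonate library 0 were. Under quantile normalization Tcl1 was at -0.05.

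Acetate against DMSO gave log2 differences of -0.02 for Tcl1 to 0.51 for Omt2b, with 0 members passing beside 0.0653% of genes. Without replicate 1 of acetate all 8 were below 0, from -0.01 for Omt2b to -0.52 for Tcl1b4. Crotonate against acetate, a comparison of short acyl salts that differ in chain length and in a double bond, gave 0.07 for Omt2b to 1.18 for Tcl1b2. Of the members 0 passed beside 1.86% of genes, and 6 passed without replicate 1 of acetate, where the values ran from 0.59 to 1.81 and 322 genes were called higher and 535 lower in all, against 141 and 116 with it. The libraries of 6 members did not overlap, all but Omt2a and Omt2b, beside 17.9% of all genes in that direction. Without replicate 2 of acetate the mean of the Omt2 pair was -0.27. The share of higher genes among those called moved from 54.9% to 71.8% after rescaling without mitochondrial and ribosomal RNA. The crotonate comparisons share the crotonate libraries and the comparisons against DMSO share the DMSO libraries.

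Mitochondrial transcripts and the members had the same order of group means within each experiment, by their share of the FPKM sum. Of that sum mitochondrial transcripts made up 13.1%, 17.1% and 15.8% (siCon E2C) and 2.83%, 1.70% and 10.4% (siEchs1 E2C). They took 7.62% to 11.2% in siCon L2C and 0.834% to 2.28% in siEchs1 L2C. In the treatment libraries they took 13.4% and 12.2% in DMSO, 20.7% and 11.9% in acetate and 19.8% and 16.7% in crotonate. The 8 members together took 8.09%, 7.18% and 7.35% in siCon E2C and 2.17%, 1.95% and 4.25% in siEchs1 E2C. At L2C they took 3.64%, 3.44% and 2.79% in siCon and 0.990%, 1.00% and 1.25% in siEchs1. Their share was 4.37% and 3.94% in DMSO, 5.81% and 3.79% in acetate and 7.09% and 6.88% in crotonate. Within siEchs1 E2C, DMSO, acetate and crotonate the library with the highest mitochondrial share also had the highest summed share of the members. Within siCon E2C and siCon L2C the library with the lowest mitochondrial share had the highest members' share. In siEchs1 L2C the highest shares fell in different libraries. After rescaling without mitochondrial and ribosomal RNA the Omt2 pair had a mean log2 difference of -1.62 between the stages in siCon, against -1.98 before, and no member changed its side at E2C or L2C. The part of this share in the results was not tested beyond that rescaling.

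Genes with the most similar pattern over the 12 siRNA libraries were taken from 2384 genes with a mean of at least 50 FPKM, by the Pearson r of log2(FPKM + 1). For Omt2b these were Serf2 (r = 0.99), the mitochondrial complex I gene mt-Nd1 (0.98), Polr2f, which encodes a subunit of RNA polymerases (0.98), Cyth1, an exchange factor for ARF proteins (0.98), and mt-Cytb (0.98). For the mean of the Tcl1 family they were Ctnnal1 (0.98), the actin regulator Enah (0.97), Gm11487 (0.96), Serf2 (0.96) and B3gnt4 (0.95). Serf2 had means of 3598, 1298, 1405 and 592 FPKM in siCon E2C, siEchs1 E2C, siCon L2C and siEchs1 L2C. In the 6 treatment libraries Serf2 correlated with Omt2b at 0.88, and Ctnnal1 with the family mean at 0.67. These values describe libraries that share groups.

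Zp3, a coat protein of the egg, went the opposite way from the members, with an r of -0.85 to Omt2b and -0.87 to the family mean. The members were chosen as not following Zp2, Zp3 and Mos in these groups, so this contrast is a description only. The siRNA differences of Zp2, Zp3 and Mos are likewise given without a test. The level of Zp3 was 4409, 3188 and 2631 FPKM in siEchs1 L2C and 44.8, 70.8 and 93.7 FPKM in siCon L2C (log2 difference 5.62). Mos, a kinase of meiotic arrest, was higher by 6.66 and Zp2, another coat protein, by 4.95. At E2C all 3 were higher as well, with Zp3 at 4.43, or 6.6 without replicate 3 of siEchs1 E2C. Replicate 3 of siEchs1 E2C was at the control level for Zp3 (35.9 FPKM), while it was below every control for all 8 members. In crotonate against DMSO, Zp3 was at -0.94 (limma adjusted p = 0.29) and did not pass.

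The proteins of the Tcl1 family act on AKT, so the genes of that pathway were measured beside them. Mtcp1, the member of the wider family outside the cluster, was at 1.06 FPKM or less in all 18 libraries. Akt1 rose from 6.33 ± 0.56 FPKM in siCon E2C to 88.6 ± 24.0 FPKM in siCon L2C (SD, n = 3, log2 difference 3.58, limma adjusted p = 0.000265), and Akt2 rose from 3.36 ± 0.57 to 29.1 ± 3.30 FPKM (2.79, adjusted p = 0.0014). Both were thus low in siCon at the stage at which the family was highest. With siEchs1 at L2C neither passed. Akt1 was at 74.4, 18.8 and 21.8 FPKM in siEchs1 L2C against 109, 94.0 and 62.4 FPKM in siCon L2C (-1.43, limma adjusted p = 0.0531), and Akt2 at -1.15 (adjusted p = 0.11). Those calls turned on the fit, since without replicate 3 of siEchs1 E2C, which enters through the shared spread, Akt1 passed (adjusted p = 0.0139) and so did Akt2 (adjusted p = 0.0017).

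A list of 34 genes of phosphoinositide 3-kinase and AKT signalling was followed by role, and 32 of them could be tested in the siRNA experiment. Between the stages in siCon, 16 rose and 3 fell, with a median log2 difference of 0.96 against 0.51 over all genes, of which 35.8% rose and 14.4% fell. Akt1s1, which encodes a substrate of AKT within the mTOR complex, rose from 0.84 ± 0.44 to 51.5 ± 14.6 FPKM (4.82, adjusted p = 9.8e-06). Foxo4, a transcription factor that AKT keeps out of the nucleus, rose from 0.14 ± 0.12 to 31.7 ± 20.8 FPKM (4.64, adjusted p = 1.86e-05). Gsk3a, a kinase that AKT inhibits, rose as well (4.68, adjusted p = 3.8e-05), as did the lipid phosphatase gene Inppl1 (2.25, adjusted p = 2.94e-05). Of the lipid kinase genes Pik3cb, Pik3r2 and Pdpk1 rose and 0 of 7 fell, though the call for Pdpk1 (adjusted p = 0.0395) ended in 12 of 20 other settings (up to 0.27), 8 of them fits without 1 library, and that for Pik3cb under quantile normalization (0.112). Under quantile normalization 10 rose and 5 fell. In siEchs1 5 rose and 2 fell between the stages (11.8% and 2.73% of all genes), among them Akt1s1 (4.05, adjusted p = 0.000327), Gsk3a (2.95, adjusted p = 0.00494), Inppl1 (1.18, adjusted p = 0.0105) and, falling, Pik3ca (-2.08, adjusted p = 0.0126). The calls for Inppl1 and Pik3ca ended without replicate 1 of siEchs1 L2C and with the compared libraries alone (adjusted p up to 0.0656 and 0.0857). Without replicate 3 of siEchs1 E2C 10 rose and 3 fell, beside 2576 and 897 of all genes, and with all libraries 2 rose and 4 fell under quantile normalization and 3 rose and 4 fell with medians of ratios. The total of 7 called genes went to 12 without replicate 3 of siCon L2C, and to 2 and 4 without replicates 1 and 2 of siEchs1 L2C.

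With siEchs1 at L2C 3 genes of the list rose and 8 fell, against 21.9% and 26.9% of all genes, and the list's median was -0.52 against -0.08. Foxo4 fell from 31.7 ± 20.8 to 2.38 ± 1.76 FPKM (-3.24, adjusted p = 0.000298). Gsk3b, the other GSK3 kinase, fell from 53.1 ± 10.1 to 16.0 ± 3.46 FPKM (-1.67, adjusted p = 0.00287), and the lipid phosphatase gene Inpp4b fell from 11 ± 2.75 to 1.88 ± 1.34 FPKM (-2.16, adjusted p = 0.00404). Ppp2r1a, the scaffold of the phosphatase PP2A, rose from 45.6 ± 11.2 to 118 ± 22.5 FPKM (1.37, adjusted p = 0.00656). Genes on both sides of the pathway were among those that fell, with Inpp4b and Inppl1 of the brakes and Pik3cb and Mtor of the activating side. The calls for Inppl1 and Mtor ended without replicate 3 of siEchs1 L2C, that for Mtor also without replicates 2 or 3 of siCon L2C, and that for Pik3cb without replicate 1 of either group (adjusted p up to 0.0775, 0.0613 and 0.0707). The total of 11 called genes went to 7 without replicate 3 of siEchs1 L2C. Without replicate 3 of siEchs1 E2C, which enters through the shared spread, 3 rose and 13 fell, beside 4839 and 5401 of all genes. At E2C 1 gene rose and 1 fell, against 11% and 9.31% of all genes, while under quantile normalization and with medians of ratios 0 rose and 2 fell. Mapkap1, which encodes a subunit of the mTOR complex that phosphorylates AKT, fell from 234 ± 41.4 to 113 ± 16.5 FPKM (-1.04, adjusted p = 0.0164). Ppp2r1a rose from 28.2 ± 5.72 to 66.4 ± 25.8 FPKM (adjusted p = 0.0356). Without replicate 3 of siEchs1 E2C 2 rose and 2 fell. The call for Mapkap1 ended in 5 of 20 other settings (adjusted p up to 0.082), among them the fits without siCon E2C replicates 1 or 3 and without replicate 2 of siEchs1 at E2C, and that for Ppp2r1a in 11 (up to 0.137). Without replicate 1 of siEchs1 E2C 4 rose and 1 fell. In the treatment experiment 0 of 30 tested genes passed in any of the 3 treatment comparisons, and at an unadjusted p under 0.05 the counts were 0 for both comparisons against DMSO and 2 for crotonate against acetate. Without replicate 2 of acetate 6 fell against DMSO with acetate and 4 rose with crotonate against acetate.

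**Figure D4:**
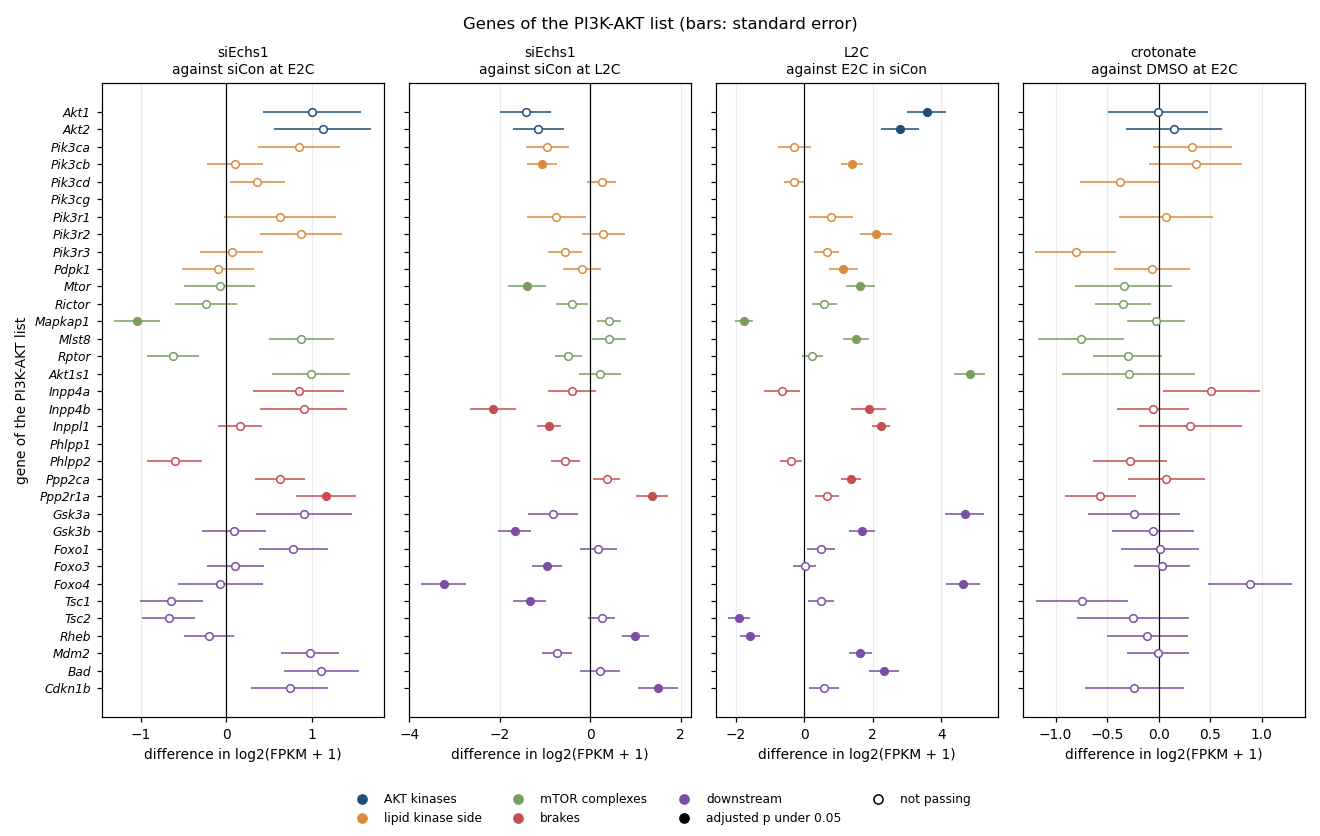
Differences in log2(FPKM + 1) (horizontal axis, bars of 1 standard error) of the genes of the PI3K-AKT list in 4 comparisons, coloured by role, with filled circles for an adjusted p under 0.05. The stage comparison in siCon holds 19 filled circles, siEchs1 at L2C 11, siEchs1 at E2C 2 and crotonate 0.

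Genes that neighbour the members did not share their pattern as a block. Within 250 kb of a member, 22 other genes had a mean of at least 1 FPKM in an experiment, and 21 were tested in the siRNA experiment. At L2C 11 of them rose and 3 fell with siEchs1, beside 21.9% and 26.9% of all genes. The 11 count the pseudogenes Dppa5b and Dppa5c separately, though their values were the same in every library, at 4.45 FPKM or less. Their calls ended in 4 of 20 other settings (adjusted p up to 0.104), and that for Gm10639 in 10 (up to 0.115). Ooep, which encodes a protein of the maternal complex under the egg's surface and lies 46.5 kb from Omt2b, was at 30.5, 30.3 and 45.3 FPKM in siCon L2C and at 940, 1148 and 1141 FPKM in siEchs1 L2C (4.91, adjusted p = 6.02e-05). Those groups lie far apart, and in the opposite order from Omt2b. Ddx43, the gene of a helicase of the germ line next to Ooep, was at 14.5, 14.9 and 13.6 FPKM in siCon L2C and at 0.64, 1.38 and 0.50 FPKM in siEchs1 L2C (-3.09, adjusted p = 5.51e-05). It fell as the members were lower, but it was low in siCon E2C (3.12 to 4.26 FPKM), where the members were highest. Gsta4, a glutathione transferase gene, rose (3.64, adjusted p = 0.00205), as did Syne3, which encodes a protein of the nuclear envelope (2.31, adjusted p = 0.000199), Glrx5 of iron-sulfur cluster assembly (1.76, adjusted p = 0.00113) and the DNA sensor gene Cgas (1.87, adjusted p = 0.00225).

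At E2C 2 neighbours rose and 4 fell with siEchs1, beside 11% and 9.31% of all genes. Syne3 (1.23, adjusted p = 0.0205) and Mto1, which serves mitochondrial tRNA modification (1.2, adjusted p = 0.0223), rose. Scarna13 (-3.53, adjusted p = 0.0011), Ddx43 (-1.74, adjusted p = 0.00306), Rn7sk (-2.78, adjusted p = 0.00915) and the pseudogene Gm47672 (-1.32, adjusted p = 0.0129) fell. Scarna13 and Rn7sk are small RNA genes, Scarna13 lies within the exon span of Snhg10 and whether they share reads was not tested, and a poly(A) method reads such genes poorly. Gm47672, 10.6 kb from Tcl1b2, was at 44.7 to 60.4 FPKM in siCon E2C and 15 to 30.5 FPKM in siEchs1 E2C. Without replicate 3 of siEchs1 E2C 12 neighbours rose and 4 fell, beside 4055 and 2441 of all genes, and Ooep was then among those that rose (1.75, adjusted p = 0.00018, against 0.93, adjusted p = 0.235, with it). The 12 again count Dppa5b and Dppa5c, whose values were the same, as separate genes. The calls for Syne3, Mto1 and Gm47672 at E2C ended without replicate 2 of siCon E2C and without replicate 2 of siEchs1 E2C (adjusted p up to 0.0913, 0.0923 and 0.0593). In replicate 3 of siEchs1 E2C Ooep was at 288 FPKM, against 1618 and 1538 FPKM in the other libraries of its group.

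Between the stages in siCon 1 neighbour rose and 4 fell, beside 35.8% and 14.4% of all genes. Ooep fell from 426 to 531 FPKM at E2C to 30.3 to 45.3 FPKM at L2C (-3.72, adjusted p = 0.000128), in the direction of Omt2a and Omt2b. Gsta4 (-2.49, adjusted p = 0.0166), Rn7sk (-1.97, adjusted p = 0.0185) and Scarna13 (-1.73, adjusted p = 0.0159) fell too, and Ddx43 rose (1.69, adjusted p = 0.000755). The calls for Gsta4 and Rn7sk ended without replicate 2 of siCon E2C or replicate 1 of siCon L2C, those for Gsta4 and Scarna13 without replicate 3 of siCon E2C, that for Scarna13 without replicate 2 of siCon L2C, and that for Rn7sk after rescaling without mitochondrial and ribosomal RNA (adjusted p up to 0.0781 for Gsta4, 0.0797 for Rn7sk and 0.0784 for Scarna13). In siEchs1 Syne3 (1.86, adjusted p = 0.00323) and Glrx5 (1.19, adjusted p = 0.0332) rose and 0 fell, beside 11.8% and 2.73% of all genes. The call for Glrx5 ended in 9 of 20 other settings (adjusted p up to 0.139), among them the replicate block (0.0646) and the fits without replicate 2 of siCon E2C, replicate 2 of siEchs1 E2C or any 1 library of siEchs1 L2C. Without replicate 3 of siEchs1 E2C Gsta4 fell (-1.56, adjusted p = 0.0415). In the treatment experiment 17 neighbours were tested. Ooep stood at 107 and 78.6 FPKM with crotonate, at 298 and 308 with acetate and at 198 and 258 with DMSO, lower in crotonate than in acetate (-1.71, limma adjusted p = 0.041), a call that ended in 9 of 14 other settings (adjusted p up to 0.415). Crotonate thus had the lowest Ooep and the highest Tcl1b libraries of that experiment. Against DMSO 0 neighbours passed, and at an unadjusted p under 0.05 the counts were 4 for crotonate and 0 for acetate. Without replicate 1 of acetate, beside 306 genes called higher and 888 lower in all, Scarna13 rose with crotonate against DMSO (1.69, adjusted p = 0.0411), and Ooep (-1.29, adjusted p = 0.0317), Eef1a1 (-0.82, adjusted p = 0.0424) and Gsta4 (-1.96, adjusted p = 0.0423) fell. In the same fit Scarna13 was also higher in crotonate than in acetate (2.12, adjusted p = 0.045).

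**Figure D5:**
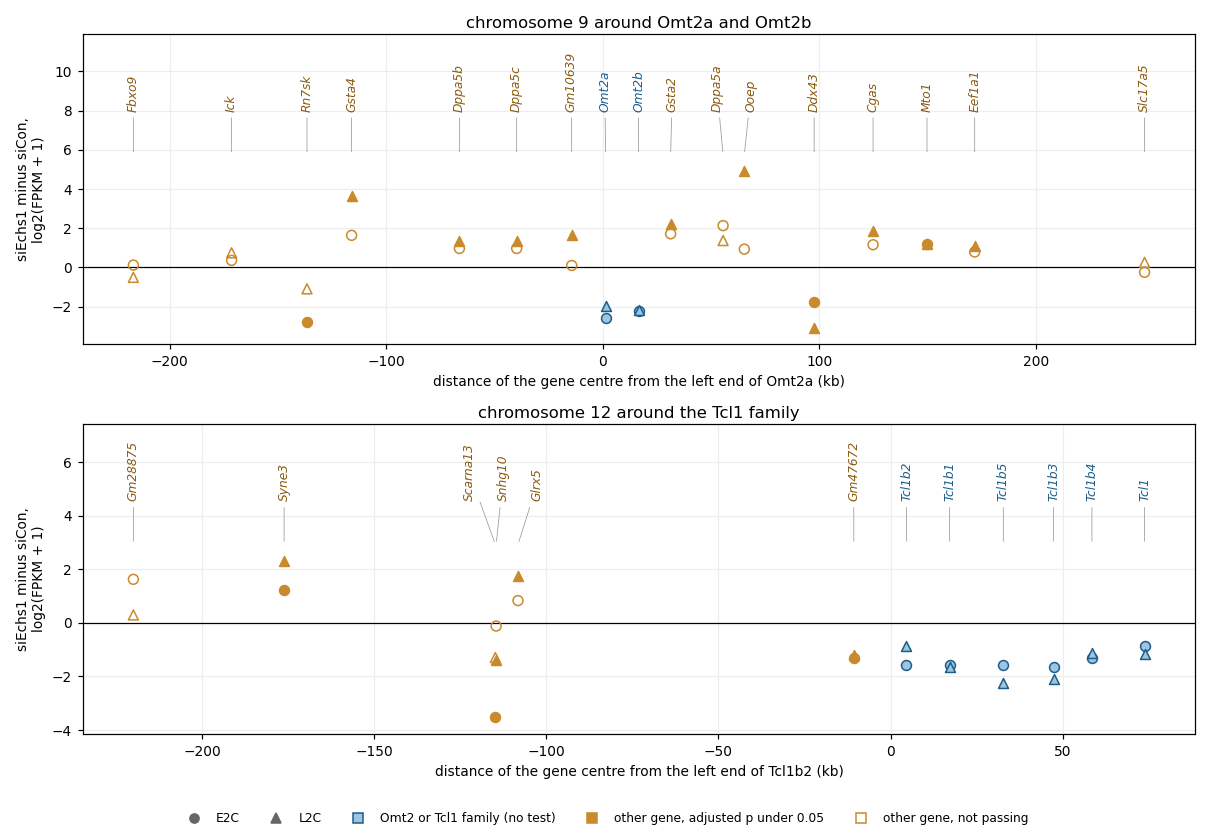
Difference in log2(FPKM + 1) between siEchs1 and siCon (vertical axis) of genes near Omt2a and Omt2b (top) and near the Tcl1 family (bottom), by distance of the gene's centre from the left end of Omt2a or Tcl1b2; circles are E2C, triangles L2C, and filled orange symbols an adjusted p under 0.05. The members (blue) lie below 0 at both stages, and Ooep, 46.5 kb from Omt2b, lies at 4.91 at L2C.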

How the data were processed

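The labels' protocols name Smart-seq2 on poly(A) RNA and 150 nt read pairs. The submitters' processing notes name cutadapt 1.16, STAR and mm10. Neither names a program for counting or an annotation. The authors deposited FPKM per gene and library, without counts or strand. Groups came from sample titles, and titles and file headers disagree on the numbers of siEchs1 L2C replicates 2 and 3, for which the titles were used. Entries with a repeated symbol (210) and 27 symbols turned into dates were dropped, which left 55098 genes. Genes with at least 1 FPKM in 3 siRNA libraries (17652) or 2 treatment libraries (13789) were fitted as log2(FPKM + 1) with limma 3.58.1 in R 4.3.3 (trend, robust), 1 fit per experiment, Benjamini-Hochberg over all genes, two-sided, with an adjusted p under 0.05 as the threshold. All adjusted p-values are from these fits. The fits were also run on simulated data with independent normal noise, few changed genes and no library standing apart. Those conditions differ from these libraries, so that run does not show how reliable the calls here are. No pair of libraries had more than 0.234% equal values. The members, the lists and the rule for named genes were chosen with earlier results of these data known. The rule named the members, Mtcp1, Akt1, Akt2, Echs1, Zp2, Zp3, Mos, up to 4 called genes of the PI3K-AKT list and up to 6 called neighbours per comparison by adjusted p, and the 5 most similar genes. Pik3cb, Pik3r2, Pdpk1, Mtor, Snhg10, Dppa5b, Dppa5c and Gm10639 are named outside it. Genes of that list that are not reported here were left out of its counts. Alternatives were other scalings, filters, pseudocounts and fits, a replicate block and leaving out each library.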

Additional observations from a re-analysis of the deposited data

Results flagged for a closer look

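The siRNA effect differed between L2C and E2C, by the interaction term of the limma fit, for 5 genes of the PI3K-AKT list and 1 neighbour of the members. For Foxo4 the effect was -0.07 at E2C and -3.24 at L2C, a difference of -3.16 (adjusted p = 0.0128). For Inpp4b the effects were 0.90 and -2.16 (difference -3.06, adjusted p = 0.0159), for Gsk3b 0.09 and -1.67 (-1.77, adjusted p = 0.0374) and for Mdm2, a ubiquitin ligase that AKT phosphorylates, 0.97 and -0.74 (-1.71, adjusted p = 0.0288). For Mapkap1 they were -1.04 and 0.41 (1.45, adjusted p = 0.0217). For Ooep they were 0.93 and 4.91 (3.98, adjusted p = 0.00686). Of all 17652 genes 17.2% passed this test. The 6 differences also passed without replicate 3 of siEchs1 E2C, where that of Ooep was 3.16. In that fit Akt2 (-1.40, adjusted p = 0.0201) and the neighbours Rn7sk (2.57, adjusted p = 0.00484), Scarna13 (2.26, adjusted p = 0.0492) and Dppa5a (-2.38, adjusted p = 0.0243) passed as well, beside 1301 genes above 0 and 2791 below in all, against 997 and 2042 with it. With all libraries, the call for Gsk3b ended in 13 of 19 other settings (adjusted p up to 0.101), the replicate block and 8 fits without 1 library among them, that for Mdm2 in 11 (up to 0.0768), that for Mapkap1 in 4 (up to 0.0676) and that for Foxo4 in 1 (0.0685).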

How the results depend on the processing

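All 8 members kept their sign under every alternative at E2C and at L2C (160 of 160 values each), and 158 of 160 did so between the stages in siCon, 159 of 160 in siEchs1, 139 of 152 for the difference of effects, 111 of 112 for crotonate, 98 of 112 for acetate and 109 of 112 for crotonate against acetate. Leaving out a library of a group not compared, the replicate block, no filter, no trend and the compared libraries alone cannot change these values. Part of each count was therefore fixed in advance. The members were also chosen by these values, so the counts are a description. A kept sign says nothing of size, since Tcl1 at E2C was close to 0 under quantile normalization. The cause of the changes below was not tested. Quantile normalization gave a mean for the Omt2 pair of -0.73 at E2C (before -2.39), -1.39 at L2C (-2.09), -0.42 between stages in siCon (-1.98), -1.08 in siEchs1 (-1.68), -0.66 for the difference of effects (0.30) and 0.40 for crotonate (0.73). It gave a Tcl1 family median of -0.94 at E2C (-1.57), -0.14 between stages in siCon (-1.11) and -0.54 for the difference of effects (-0.18). It turned Tcl1 between stages in siCon (0.53) and siEchs1 (0.24) and with crotonate (-0.055), and turned the difference of effects for Omt2a (-0.32), Omt2b (-0.998), Tcl1b2 (-0.0075) and Tcl1b4 (-0.47). Medians of ratios gave -2.55 for the Omt2 pair and -1.68 for the family between stages in siCon, 0.90 and 1.161 for crotonate, and turned Tcl1b5 between stages in siCon (-0.49). Rescaling without mitochondrial and ribosomal RNA gave -1.62 for the pair and -0.76 for the family between stages in siCon. Genes called were 1807 in place of 3578 at E2C with the compared libraries alone, 827 (compared libraries) and 1704 (no filter) in place of 2572 between stages in siEchs1, and 1869 (no filter) and 1794 (pseudocount 0.1) in place of 3039 for the difference of effects. For crotonate they were 9 (no filter), 31 (pseudocount 0.1), 34 (no trend) and 1209 (compared libraries) in place of 73, and for acetate 5 (quantile and medians of ratios), 0 (no filter) and 4 (compared libraries) in place of 9. For crotonate against acetate they were 170 (rescaled), 137 (medians of ratios), 9 (no filter), 162 (pseudocount 0.1), 72 (no trend) and 74 (compared libraries) in place of 257. Called genes of the PI3K-AKT list were 1 (no filter) and 0 (compared libraries) in place of 2 at E2C, 4 (no filter) and 2 (compared libraries) in place of 7 between stages in siEchs1, and 3 (no filter or pseudocount 0.1) in place of 5 for the difference of effects. Leaving out each library in turn gave 1748 to 6496 genes called at E2C, 1121 to 3473 between stages in siEchs1, 1296 to 4094 for the difference of effects, 0 to 1194 for crotonate, 1 to 911 for acetate and 0 to 1486 for crotonate against acetate. The PI3K-AKT counts then ran from 0 to 5 at E2C, 7 to 16 at L2C, 2 to 13 between stages in siEchs1, 2 to 10 for the difference of effects, 0 to 6 for acetate and 0 to 4 for crotonate against acetate, and the family median from 0.84 to 1.14 for crotonate and -0.20 to 0.73 for acetate. Leaving out 1 of 2 treatment libraries leaves a lone sample that is assumed to vary like the other groups. Leaving out a single library also turned the difference of effects for Omt2b (-0.34 without replicate 2 of siEchs1 E2C, a range of -0.34 to 0.36), for Tcl1b1 (0.18 without replicate 3 of siEchs1 E2C, a range of -0.25 to 0.18) and for Tcl1b4 (-0.062 without replicate 3 of siCon L2C, a range of -0.062 to 0.36).

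Same-numbered libraries showed little shared deviation (correlations of -0.10 to 0.11 in the siRNA and -0.10 to 0.16 in the treatment experiment). The deviations were taken from means of very few libraries per group. These correlations therefore cannot decide whether the replicate numbers pair the samples. With the replicate number as a block, 3169 genes were called at E2C, 8306 at L2C, 8585 between stages in siCon, 2213 in siEchs1, 2455 for the difference of effects, 69 for crotonate, 12 for acetate and 173 for crotonate against acetate. Genes called in the PI3K-AKT list were then 1 at E2C and 3 for the difference of effects. The files hold no counts, so what depth limits cannot be given.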
